A study of Fukomys damarensis and Heterocephalus glaber and Cavia porcellus with 28 samples.

Results

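Liver gene expression was compared between the guinea pig (Cavia porcellus) and the mouse (Mus musculus), the outgroup rodents of a series on gene expression in African mole-rats. The comparison used all 3 guinea pig livers and both mouse livers of the series, 5 of its 28 libraries. The 5 columns were set against each other over all genes, and a gene was kept when its mean over the 5 columns was at least 1 above the lowest value of the table. This kept 10658 of 13928 genes. The other 3270 genes were too low in these 5 livers to be tested. The guinea pigs were males of 2.3 months and the mice males of 2 months, and no treatment or genetic change was recorded for either. Strain, diet and hour of dissection are not in the labels. Frozen liver gave total RNA, from which ribosomal RNA was removed before sequencing. Hearts of the same 3 guinea pigs, and of 3 mice of which 1 also gave a liver, were sequenced alongside and serve for comparison at the end.

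The liver makes and exports plasma proteins, builds and burns fatty acids, releases glucose between meals, and turns over cholesterol, amino acids and foreign compounds. Hepatocytes do most of this, and their metabolism is zoned from the portal inflow to the central vein. The guinea pig differs from the mouse in several well-known traits of this organ. It cannot make ascorbate and takes it from food. It carries most plasma cholesterol in low-density lipoprotein, where the mouse carries most in high-density lipoprotein. Its liver holds both the cytosolic and the mitochondrial form of phosphoenolpyruvate carboxykinase, whereas the mouse liver relies on the cytosolic form.

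Values are the deposited ones on a log2-like, variance-stabilised scale, on which a gene with 0 reads has 4.2893 (called the floor below). A 2-fold change moves the value by 0.970 from 1000 scaled reads but by only 0.375 from 10. Scaled reads are the reads recovered from the values, divided by a library's size factor, with no correction for gene length, so levels of different genes are not compared. A difference is the guinea pig mean minus the mouse mean, given with its limma standard error. A gene was called when limma gave an adjusted p under 0.05 and the difference was at least 1 in size. Depth was 13945522 to 21467939 reads in the guinea pig livers and 11220505 to 18366998 in the mouse livers. Nothing in the labels shows whether lanes or days differed between the species, so technical and species differences cannot be told apart. Reads of each species were assigned to mouse gene identifiers by steps not given in the sources used here, so a gene's difference can also hold differences in transcript length, annotation or the assignment of close gene copies.

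All 5 libraries had albumin (Alb) as the gene with the most reads, and of 9 measured hepatocyte markers only the haem carrier Hpx differed by the call rule (-1.09). Spearman correlations over the genes tested were 0.953 to 0.977 between guinea pigs, 0.976 between the mice and 0.691 to 0.715 across species. Guinea pig replicate 2 stood apart from its group: it was the lowest guinea pig for 68 of 72 ribosomal protein genes, 58 of 72 nuclear genes of oxidative phosphorylation and 26 of 29 plasma protein genes, against 4227 of all 10658 genes. Reads from mitochondrial genes made up 4.04% to 4.26% in the guinea pigs, 5.74% in mouse replicate 1 and 2.88% in mouse replicate 2. Transcripts of heart muscle were present at low level in all 5 livers: 8 markers summed to 5599, 799 and 2458 scaled reads in the guinea pigs and to 2032 and 1174 in the mice, which overlap.

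Of the genes tested, 4148 (38.9%) were called, 2108 (19.8%) higher in guinea pig and 2040 (19.1%) higher in mouse. The called genes were nearly all of the 4165 with a difference of at least 1 in size, and with no size threshold 6510 genes (61.1%) passed the adjusted p. The 3 guinea pig values and 2 mouse values did not overlap for 7644 genes (71.7%), among them 4124 of the called genes. Nearly all called genes thus lacked overlap, and where this is given below it is a description only. The median difference over all genes tested was 0.04 and the median size of the difference 0.76. Large differences were evenly shared: 287 called genes were higher in guinea pig by at least 3 and 288 higher in mouse, and 56 in each direction passed 5. With this many genes called, a gene list is read below against 19.8% and 19.1%. With 3 and 2 libraries an exact two-sided permutation test of the ranks of any single gene could not go below 0.2.

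**Figure D1:**
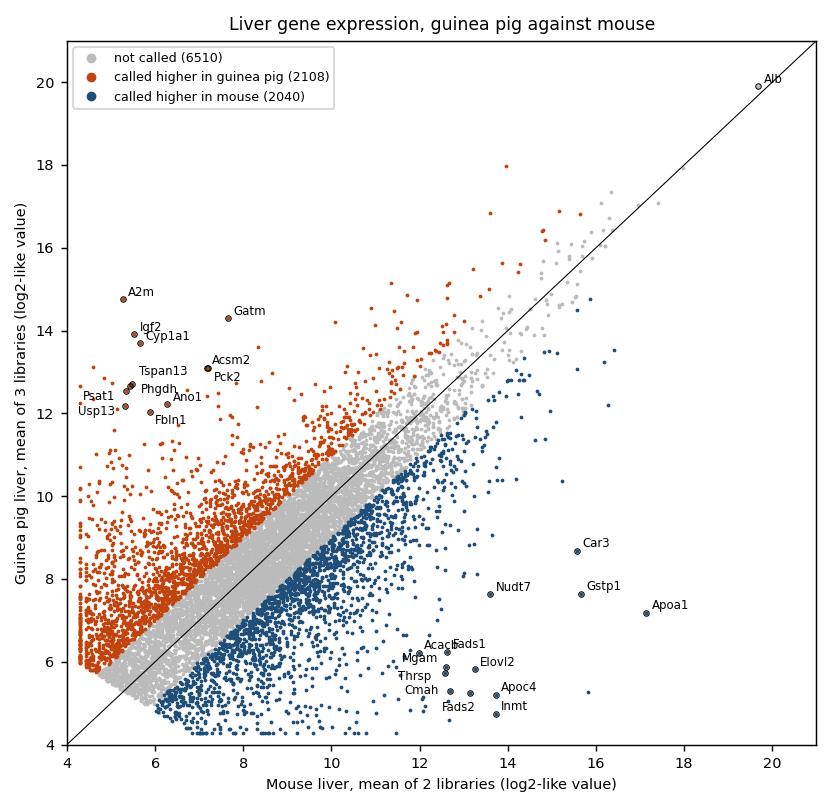
Mean value of each of the 10658 genes tested in 3 guinea pig livers (vertical axis) against 2 mouse livers (horizontal axis), both on the log2-like scale with the diagonal marking equal values; orange genes were called higher in guinea pig, blue genes higher in mouse, grey genes were not called. Albumin lies near the diagonal at the top, while Apoa1, Gstp1 and Car3 have high mouse and low guinea pig values and A2m, Igf2 and Gatm the reverse.

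Among called genes whose groups did not overlap and whose means were at least 1 above the floor in both species, the 10 with the most guinea pig excess included a growth factor, a drug-metabolising enzyme and 3 enzymes of serine and creatine synthesis. Igf2 (ENSMUSG00000048583), which encodes the growth factor IGF2, had 13.81, 13.76 and 14.15 in the guinea pigs and 6.05 and 5.02 in the mice, a difference of 8.37 ± 0.31 (adjusted p 7.57e-13, limma). Its scaled reads averaged 17146 in guinea pig and 21.1 in mouse, and every guinea pig library was above both mice, as the rule required. Cyp1a1, a cytochrome P450 induced through the aryl hydrocarbon receptor, had 13.88, 13.21 and 13.98 in the guinea pigs and 5.73 and 5.58 in the mice (8.04 ± 0.50). Phgdh and Psat1 catalyse the opening steps of serine synthesis from glycolysis. Phgdh had 12.74, 12.47 and 12.77 in the guinea pigs and 5.73 and 5.15 in the mice (7.22 ± 0.31), and Psat1 had 12.18, 12.86 and 12.62 in the guinea pigs and 5.33 and 5.34 in the mice (7.21 ± 0.21). That the 2 species did not overlap for either gene was fixed by the rule. Gatm, the amidinotransferase that starts creatine synthesis, had 14.62, 13.75 and 14.53 in the guinea pigs and 7.55 and 7.77 in the mice (6.64 ± 0.37). The tetraspanin Tspan13 (7.24 ± 0.25), the deubiquitinase Usp13 (6.85 ± 0.18), the matrix protein fibulin-1 (Fbln1, 6.16 ± 0.22), the chloride channel Ano1 (5.94 ± 0.20) and the medium-chain acyl-CoA synthetase Acsm2 (5.94 ± 0.28) completed the leading 10.

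By the same rule the mouse-higher end held an apolipoprotein, a glutathione transferase and a run of lipogenic genes. Apoa1 (ENSMUSG00000032083), the main protein of high-density lipoprotein, had 7.96, 6.51 and 7.07 in the guinea pigs and 17.26 and 17.03 in the mice, a difference of -9.96 ± 0.37 (adjusted p 7.68e-13, limma), and 1191 times more scaled reads in mouse. No guinea pig value came near a mouse value. Gstp1, a glutathione transferase with a near-identical copy in the mouse genome, had 8.15, 7.24 and 7.52 in the guinea pigs and 15.75 and 15.58 in the mice (-8.03 ± 0.28). Cmah, the hydroxylase that makes the sialic acid Neu5Gc, had 5.18, 5.41 and 5.31 in the guinea pigs and 12.50 and 12.87 in the mice (-7.39 ± 0.19). Car3, a carbonic anhydrase abundant in rodent liver and fat, had 8.15, 9.15 and 8.73 in the guinea pigs and 15.62 and 15.53 in the mice (-6.90 ± 0.29). The groups of these 4 genes did not overlap, which the rule required. The other 6 were Elovl2, Thrsp, Fads1 and Acacb, described with the lipid genes, the glucosidase Mgam (-6.72 ± 0.43) and the peroxisomal CoA diphosphatase Nudt7 (-5.97 ± 0.27).

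The mole-rat livers of the same table give a frame for these genes, as group means with no test here. Apoa1 averaged 14.64 in naked and 14.86 in Damaraland mole-rats, against the guinea pig values of 7.96, 6.51 and 7.07. Igf2 averaged 14.83 and 12.08, Phgdh 12.59 and 11.55, and Psat1 12.65 and 11.33, all nearer the guinea pig than the mouse. Apoa1 in both mole-rats lay nearer the mouse, and so did Gatm, with 6.24 and 8.23. For Car3 the mole-rats split, with 15.63 in the naked and 5.95 in the Damaraland species.

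Among 25 gene lists, chosen with earlier results of these data known, the share of tested members called was highest, at 66.7%, for fatty acid and triglyceride synthesis, for ascorbate, glucuronate and urate metabolism and for phase II metabolism. Genes of PPARA and peroxisomes (61.5%), lipoproteins (60.7%) and phase I metabolism (59.4%) followed. Of the lists of basic cell machinery, 8.3% of mitochondrially encoded, 11.1% of proteasome, 23.6% of ribosomal protein and 34.7% of nuclear oxidative phosphorylation genes were called.

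**Figure D2:**
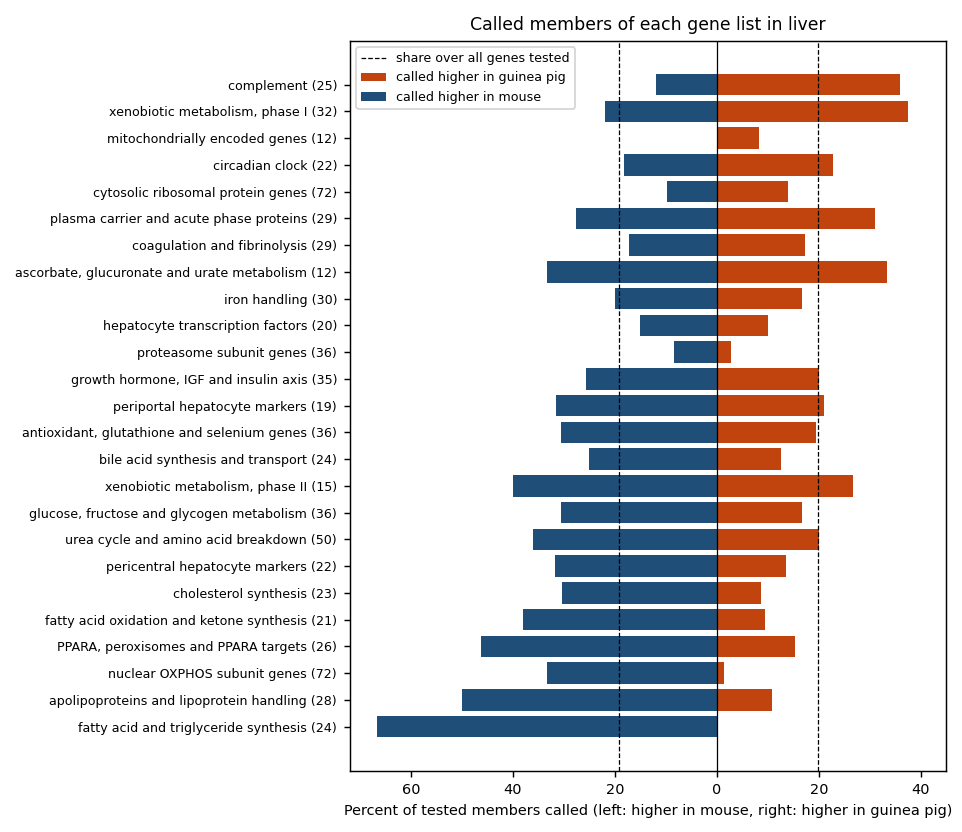
Percent of the tested members of 25 gene lists that were called in liver, to the left when higher in mouse and to the right when higher in guinea pig, with the number tested in brackets; dashed lines mark the shares over all genes tested, 19.1% and 19.8%. Fatty acid and triglyceride synthesis has 16 of 24 members on the mouse side and 0 on the guinea pig side, and complement has 9 of 25 on the guinea pig side and 3 on the mouse side.

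Fatty acid and triglyceride synthesis was called in 1 direction. Of 24 tested members, 16 were higher in mouse and 0 in guinea pig, with a median difference of -2.50. The called members included enzymes that lengthen and desaturate polyunsaturated fatty acids. Fads2, the delta-6 desaturase, had 5.22, 5.34 and 5.17 in the guinea pigs and 12.76 and 13.55 in the mice (-7.91 ± 0.50), and Fads1, the delta-5 desaturase, had 6.46, 6.07 and 6.18 in the guinea pigs and 12.37 and 12.87 in the mice (-6.38 ± 0.51). Elovl2, which lengthens very long polyunsaturated chains, had 5.58, 5.79 and 6.09 in the guinea pigs and 13.26 and 13.24 in the mice (-7.43 ± 0.22). For these 3 genes all guinea pig values were near the floor and no values overlapped. Malic enzyme (Me1), a source of NADPH for lipogenesis, had 5.14, 5.21 and 5.09 in the guinea pigs and 11.87 and 12.30 in the mice (-6.94 ± 0.30), and Thrsp, a lipogenic protein induced by thyroid hormone and carbohydrate, had 5.87, 6.09 and 5.24 in the guinea pigs and 11.96 and 13.21 in the mice (-6.85 ± 0.39). Acacb, the mitochondrial acetyl-CoA carboxylase whose product restrains fatty acid oxidation, had 6.25, 6.18 and 6.21 in the guinea pigs and 11.80 and 12.17 in the mice (-5.77 ± 0.40). Fatty acid synthase (Fasn) varied among the guinea pigs, with 10.94, 12.00 and 9.82 in the guinea pigs and 13.41 and 14.17 in the mice, and each guinea pig was below both mice (-2.87 ± 0.51, adjusted p 0.000123, limma). Of the other called members the lipogenic regulator Srebf1 differed by -3.39, the elongase Elovl5 by -5.21 and Elovl1 by -1.55. In triglyceride assembly the phosphatidate phosphatase Lpin1 was called (-2.67), while Dgat1 (0.56), Dgat2 (0.23), Gpam (0.43) and Agpat2 (-0.56) did not pass. The mouse count stayed at 16 or 17 when any 1 library was left out.

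**Figure D3:**
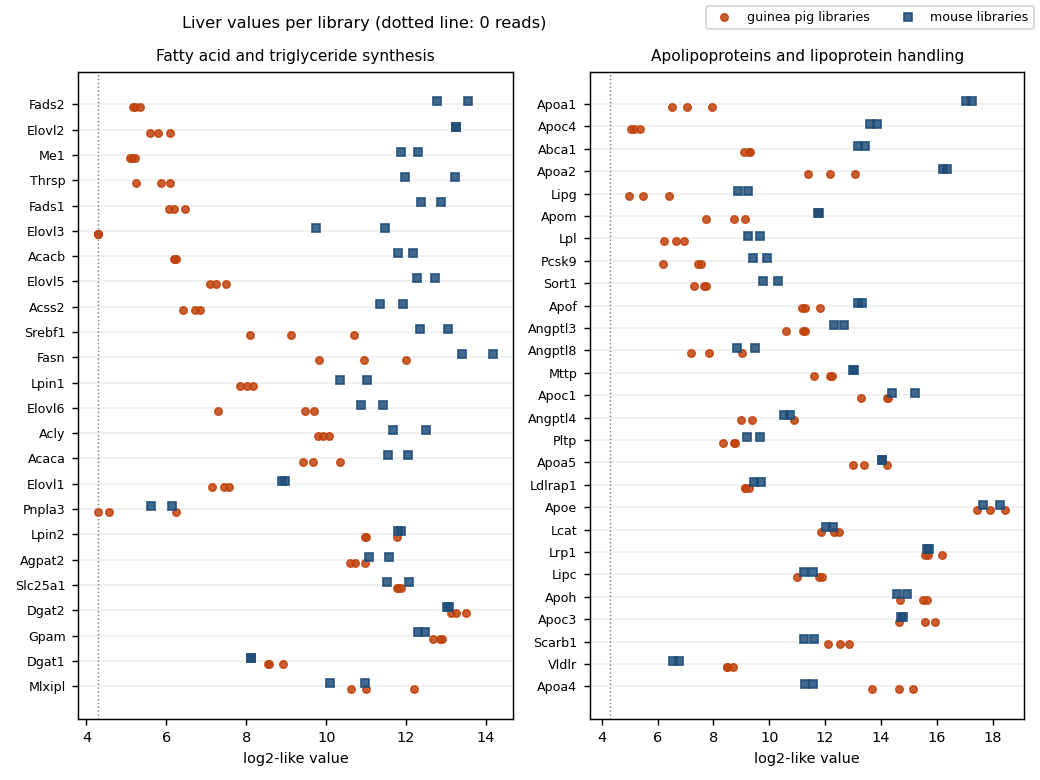
Values per library, on the log2-like scale, of the tested genes reported here of fatty acid and triglyceride synthesis (left) and of apolipoproteins and lipoprotein handling (right), with 3 guinea pig points and 2 mouse points a gene, ordered by the difference; the dotted line is the value of a gene with 0 reads. Genes at the top, such as Fads2 and Apoa1, have groups far apart, while the groups of Apoe and Lcat overlap.

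Of the genes for lipoproteins, 14 of 28 tested were higher in mouse and 3 in guinea pig, with a median of -0.96. Several mouse-higher members act in high-density lipoprotein. Besides Apoa1, its partner Apoa2 had 13.07, 11.38 and 12.19 in the guinea pigs and 16.21 and 16.35 in the mice (-4.06 ± 0.39), and the cholesterol exporter Abca1, which loads lipid onto Apoa1, had 9.08, 9.26 and 9.30 in the guinea pigs and 13.17 and 13.42 in the mice (-4.08 ± 0.21). Apoc4, an apolipoprotein of the Apoe gene cluster, had 5.05, 5.37 and 5.17 in the guinea pigs and 13.87 and 13.59 in the mice (-8.53 ± 0.27). None of these 4 genes had overlapping groups. The high-density lipoprotein receptor Scarb1 went the other way, with 12.53, 12.12 and 12.86 in the guinea pigs and 11.59 and 11.24 in the mice (1.09 ± 0.25), and lost its call without guinea pig replicate 3 or mouse replicate 2 (0.91 in each case). The other guinea pig-higher members were the receptor Vldlr (1.90 ± 0.26) and Apoa4, an apolipoprotein of triglyceride-rich particles, with 15.13, 13.68 and 14.65 in the guinea pigs and 11.55 and 11.27 in the mice (3.07 ± 0.52). Apoe had 17.45, 17.89 and 18.43 in the guinea pigs and 17.67 and 18.27 in the mice and was not called (-0.05 ± 0.43).

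Cholesterol synthesis had 7 of 23 members higher in mouse and 2 in guinea pig, with a median of -0.66. Its 39.1% called was near the 38.9% of all genes tested. The sterol-sensing regulator Insig1 (-3.24 ± 0.26) was higher in mouse, as were the sterol carrier Stard4 (-3.04 ± 0.33) and the second regulator Insig2 (-1.45 ± 0.21). The transcription factor Srebf2 (1.13 ± 0.22) and the decarboxylase Mvd (1.08 ± 0.35) were higher in guinea pig. Mvd lost its call without mouse replicate 1 (0.62, adjusted p 0.226, limma) or guinea pig replicate 2 (0.97), and was 0.95 with a replicate block, and the count of guinea pig-higher members ran from 1 to 4 over the libraries left out, lowest without guinea pig replicate 2 or mouse replicate 1 and highest without mouse replicate 2. Bile acid genes, which dispose of cholesterol, gave 3 of 24 higher in guinea pig and 6 in mouse (median -0.11). That is 37.5% called, no more than over all genes tested. Cyp7a1, the rate-limiting enzyme of bile acid synthesis, had 11.83, 8.67 and 9.90 in the guinea pigs and 9.53 and 10.37 in the mice and was not called (0.18 ± 0.66). Cyp7b1, of the alternative route, had 7.04, 6.44 and 6.43 in the guinea pigs and 12.80 and 11.63 in the mice (-5.58 ± 0.29). The export pair Slc51a and Slc51b, which moves bile acids back into blood, was higher in guinea pig by 3.91 ± 0.42 and 4.32 ± 0.47, and so was the canalicular bile salt pump Abcb11 (1.78 ± 0.22), with 15.54, 15.46 and 15.92 in the guinea pigs and 13.89 and 13.83 in the mice. The sinusoidal exporter Abcc3 was higher in mouse (-4.91 ± 0.63).

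Peroxisomal genes and targets of the fatty acid receptor PPARA had 12 of 26 members higher in mouse and 4 in guinea pig, with a median of -0.78. These 26 were the genes in the table of 37 listed. Ppara itself had 10.29, 10.22 and 10.12 in the guinea pigs and 11.53 and 11.67 in the mice, a difference of -1.39 ± 0.20. It was lower in each guinea pig than in either mouse. The kinase Pdk4, a PPARA target that turns off pyruvate oxidation, went the other way with 10.90, 10.32 and 10.71 in the guinea pigs and 8.16 and 6.48 in the mice (3.33 ± 0.52), as did the carnitine acetyltransferase Crat (2.67 ± 0.20) and the pantetheinase Vnn1 (1.99 ± 0.18). Mitochondrial fatty acid oxidation and ketone synthesis gave 8 of 21 members higher in mouse and 2 in guinea pig (median -0.36). The acyl-CoA dehydrogenases diverged: Acadl, for long chains, had 6.97, 6.44 and 6.51 in the guinea pigs and 11.72 and 11.69 in the mice (-5.06 ± 0.23), and Acadm, for medium chains, had 13.13, 13.43 and 13.80 in the guinea pigs and 12.11 and 12.34 in the mice (1.23 ± 0.29). Cpt1a, the gate of fatty acid entry into mitochondria, had 10.83, 9.22 and 12.29 in the guinea pigs and 13.08 and 13.34 in the mice (-2.43 ± 0.60, adjusted p 0.00209, limma), with a wide spread among the guinea pigs, each below both mice.

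The carboxykinases, which commit carbon to glucose synthesis, differed in opposite directions. Pck2, the mitochondrial phosphoenolpyruvate carboxykinase, had 13.14, 12.86 and 13.27 in the guinea pigs and 7.24 and 7.15 in the mice, a difference of 5.89 ± 0.27 (adjusted p 8.55e-12, limma) and 79.4 times more scaled reads in guinea pig. Pck1, the cytosolic form, had 13.05, 13.02 and 14.46 in the guinea pigs and 14.21 and 15.67 in the mice (-1.43 ± 0.49, adjusted p 0.0179), with guinea pig replicate 3 above mouse replicate 1. The Pck1 groups therefore overlapped, and the call was lost without guinea pig replicate 1 (-1.20) or 2 (-1.19) and without mouse replicate 2 (-0.70, adjusted p 0.33). Over the whole list 6 of 36 members were higher in guinea pig and 11 in mouse, with a median of -0.21. Among the mouse-higher members, the fructose carrier Slc2a5 had 4.89, 4.71 and 4.67 in the guinea pigs and 7.25 and 7.85 in the mice (-2.79 ± 0.58), the fructokinase Khk had 11.06, 10.94 and 11.25 in the guinea pigs and 12.80 and 13.22 in the mice (-1.93 ± 0.27), and the triokinase Tkfc had 9.01, 9.20 and 9.34 in the guinea pigs and 12.77 and 12.98 in the mice (-3.69 ± 0.26). The alanine aminotransferase Gpt (-3.66 ± 0.34) and the malate dehydrogenase Mdh1 (-2.59 ± 0.33) were higher in mouse, and the hexokinase Hk1 (1.41 ± 0.20), the polyol enzyme Akr1b3 (1.51 ± 0.32) and the phosphatase G6pc3 (1.71 ± 0.30) in guinea pig.

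**Figure D4:**
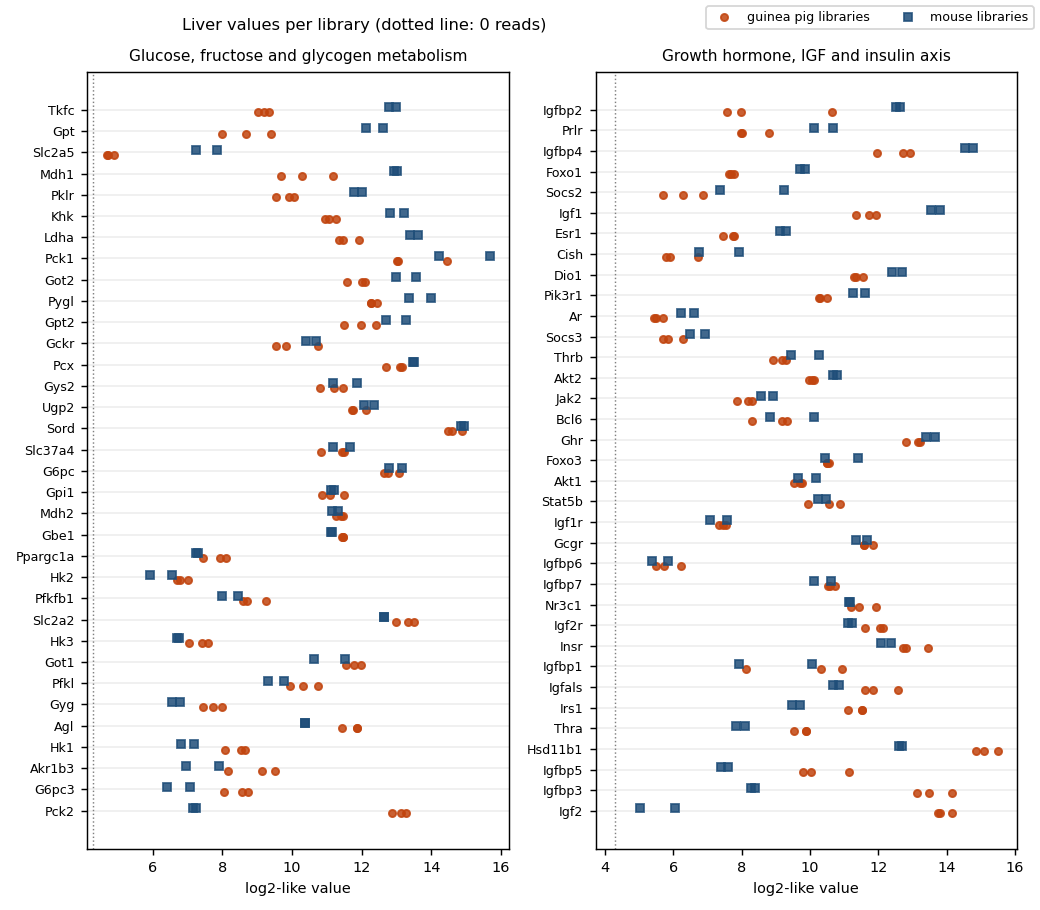
Values per library, on the log2-like scale, of the tested genes reported here of glucose, fructose and glycogen metabolism (left) and of the growth hormone, IGF and insulin axis (right), with 3 guinea pig points and 2 mouse points a gene, ordered by the difference; the dotted line is the value of a gene with 0 reads. Pck2 and Igf2 stand alone at the bottom with the widest gaps, and the points of Pck1 overlap between species.

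Of 12 tested genes of ascorbate, glucuronate and urate metabolism, 4 were higher in guinea pig and 4 in mouse (median 0.37). Gulo, the last enzyme of ascorbate synthesis, was not analysed here. The step before it, the lactonase Rgn, had 13.03, 12.97 and 13.12 in the guinea pigs and 14.18 and 14.18 in the mice (-1.14 ± 0.25), and Akr1a1, which makes the gulonate it needs, had 11.89, 10.74 and 11.24 in the guinea pigs and 12.71 and 12.92 in the mice (-1.53 ± 0.29). Rgn lost its call with quantile normalisation (-0.98), and both genes lost theirs when tested against a difference of 1. The ascorbate carrier Slc23a1 was also higher in mouse (-1.92 ± 0.20). Among the guinea pig-higher members, Dcxr, the xylulose reductase, had 12.91, 13.07 and 13.44 in the guinea pigs and 10.40 and 10.30 in the mice (2.79 ± 0.28), and Cryl1, the gulonate dehydrogenase, had 11.05, 11.51 and 11.35 in the guinea pigs and 8.52 and 8.65 in the mice (2.71 ± 0.25). Gsto1, which can reduce dehydroascorbate, was higher in guinea pig too (2.69 ± 0.37), and the glucuronidase Gusb had 12.42, 11.95 and 13.00 in the guinea pigs and 9.07 and 9.55 in the mice (3.14 ± 0.27). Urate oxidase (Uox) was present in both species and higher in mouse, with 11.63, 11.07 and 11.39 in the guinea pigs and 14.78 and 14.45 in the mice (-3.25 ± 0.25). None of the 8 called genes had overlapping groups, like 4124 of all 4148 called genes.

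Amino acid breakdown and the urea cycle gave 18 of 50 members higher in mouse and 10 in guinea pig, with a median of -0.72. The urea cycle's entry enzyme Cps1 had 16.44, 16.26 and 16.59 in the guinea pigs and 16.25 and 16.49 in the mice and did not differ by the call rule (0.06 ± 0.27). The serine dehydratases diverged, Sds with 6.86, 5.01 and 7.15 in the guinea pigs and 10.13 and 11.20 in the mice (-4.32 ± 0.61) and its relative Sdsl with 10.65, 11.52 and 11.44 in the guinea pigs and 7.64 and 8.67 in the mice (3.05 ± 0.33). The cleavage of glycine (Gldc, 1.83 ± 0.18), the last step of transsulfuration (Cth, 1.56 ± 0.24) and the methionine adenosyltransferase Mat1a (1.35 ± 0.30) were higher in guinea pig. Mat1a lost its call without mouse replicate 1 (0.86). Higher in mouse were Csad, of taurine synthesis (-3.32 ± 0.23), the ornithine aminotransferase Oat (-2.69 ± 0.36) and the hydroxyproline oxidase Prodh2 (-2.63 ± 0.36). Glul, glutamine synthetase of the cells around the central vein, had 13.66, 12.37 and 12.39 in the guinea pigs and 14.33 and 14.35 in the mice (-1.53 ± 0.47) and lost its call when either mouse was left out (adjusted p 0.0519 and 0.0556, limma).

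Phase I genes, which oxidise foreign and endogenous compounds, had 12 of 32 tested members higher in guinea pig and 7 in mouse, with a median of 0.13. Aox1, aldehyde oxidase, had 14.29, 14.50 and 14.83 in the guinea pigs and 10.89 and 10.88 in the mice (3.65 ± 0.23). Monoamine oxidase A (Maoa) had 11.75, 11.76 and 12.33 in the guinea pigs and 7.87 and 7.54 in the mice (4.25 ± 0.20), and the lactonase Pon3 had 14.37, 13.99 and 14.24 in the guinea pigs and 10.36 and 9.79 in the mice (4.13 ± 0.28). In these 3 genes, as in Cyp1a1, each guinea pig was above both mice. Mouse-higher members were the orphan P450 Cyp2u1 (-5.59 ± 0.23), Cyp4v3 (-3.45 ± 0.31), the periportal Cyp2f2 (-2.89 ± 0.24) and the cytochrome b5 reductase Cyb5r3 (-2.60 ± 0.32). Cyp2e1, the ethanol-oxidising P450, had 17.92, 16.33 and 17.79 in the guinea pigs and 16.72 and 15.95 in the mice and did not pass (1.01 ± 1.74). Its standard deviation was 0.89 in the guinea pigs and 0.55 in the mice, and the standard error also takes in the mole-rats. Of 54 phase I genes listed, 33 were in the table, and the others were not analysed here. Phase II genes gave 4 of 15 higher in guinea pig and 6 in mouse (median -0.70). Of 39 phase II genes listed, only 16 were in the table. The methyltransferase Inmt had 4.67, 4.88 and 4.67 in the guinea pigs and 13.81 and 13.64 in the mice (-8.99 ± 0.32), from 2, 4 and 2 reads in the guinea pigs and 12182 and 17594 in the mice. The methyltransferase Tpmt (-3.65 ± 0.30) was lower in guinea pig too, and the glutathione transferases Gstm5 (3.73 ± 0.22), Mgst3 (3.65 ± 0.23) and Gstt3 (3.10 ± 0.35) higher. Glutathione transferases form a family of close copies, so their assignment between species is uncertain.

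Antioxidant genes were split, with 7 of 36 higher in guinea pig and 11 in mouse (median -0.38). Catalase (Cat) had 17.03, 16.48 and 17.15 in the guinea pigs and 15.36 and 14.95 in the mice (1.73 ± 0.27), all guinea pigs above both mice. Of the thioredoxin system, the peroxiredoxin Prdx1 had 8.95, 8.85 and 8.66 in the guinea pigs and 13.49 and 12.75 in the mice (-4.30 ± 0.27), and the reductase Txnrd1 had 7.86, 8.25 and 8.09 in the guinea pigs and 11.36 and 11.78 in the mice (-3.50 ± 0.25). The selenium-dependent methionine sulfoxide reductase Msrb1 had 8.15, 8.22 and 8.26 in the guinea pigs and 12.58 and 12.56 in the mice (-4.36 ± 0.20), and selenoprotein P (Selenop), the plasma carrier of selenium, had 14.00, 12.96 and 13.63 in the guinea pigs and 16.50 and 16.29 in the mice (-2.87 ± 0.42). The glutathione hydrolase Ggt1 (3.87 ± 0.22), the quinone reductase Nqo1 (3.38 ± 0.25) and the endoplasmic reticulum peroxidase Gpx7 (3.45 ± 0.25) were higher in guinea pig. Gpx1 was not analysed here.

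Secreted plasma proteins differed in both directions. Coagulation and fibrinolysis genes gave 5 of 29 in each direction (median 0.36), 34.5% called, no more than the 38.9% of all genes tested. Carrier and acute phase genes gave 9 higher in guinea pig and 8 in mouse of 29 (median 0.27), 58.6% called. A2m (ENSMUSG00000030111), the broad protease inhibitor alpha-2-macroglobulin, had 15.29, 14.07 and 14.88 in the guinea pigs and 5.57 and 4.96 in the mice, a difference of 9.48 ± 0.42, with 32290 scaled reads on average in guinea pig and 11.6 in mouse. The related mouse gene Pzp was not analysed here. Histidine-rich glycoprotein (Hrg) had 17.05, 16.51 and 16.99 in the guinea pigs and 13.73 and 13.46 in the mice (3.26 ± 0.37), and the lipopolysaccharide co-receptor Cd14 had 10.97, 10.34 and 10.57 in the guinea pigs and 5.69 and 5.99 in the mice (4.78 ± 0.24). Higher in mouse were C-reactive protein (Crp), with 7.90, 8.20 and 8.78 in the guinea pigs and 12.41 and 12.36 in the mice (-4.10 ± 0.30), the sulfhydryl oxidase Qsox1 (-4.85 ± 0.25) and the thyroxine carrier Serpina7 (-3.66 ± 0.30). Albumin had 20.30, 19.31 and 20.08 in the guinea pigs and 19.77 and 19.59 in the mice (0.22 ± 0.53) and transthyretin (Ttr) 16.02, 16.35 and 16.91 in the guinea pigs and 16.63 and 15.70 in the mice (0.27 ± 0.35), neither called. Without guinea pig replicate 2, the lowest of its group for 26 of the 29 carrier genes, 10 were higher in guinea pig and 7 in mouse.

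In complement 9 of 25 members were higher in guinea pig and 3 in mouse, with a median of 0.15. The central component C3 had 17.05, 16.72 and 17.34 in the guinea pigs and 16.81 and 17.10 in the mice and did not pass (0.08 ± 0.35). The lectin Colec10 had 12.17, 11.29 and 12.24 in the guinea pigs and 9.37 and 9.42 in the mice (2.50 ± 0.29), C2 had 12.91, 12.57 and 13.25 in the guinea pigs and 11.39 and 11.38 in the mice (1.53 ± 0.30), and C1qc, made by macrophages, had 10.54, 9.66 and 10.00 in the guinea pigs and 8.15 and 8.31 in the mice (1.84 ± 0.33). Among the mouse-higher members, C4b had 12.90, 8.53 and 9.68 in the guinea pigs and 15.18 and 15.27 in the mice (-4.86 ± 0.87), with guinea pig replicate 1 well above the other two, and the regulator Cr1l had 4.29, 4.59 and 4.29 in the guinea pigs and 9.40 and 10.15 in the mice (-5.39 ± 0.23). Of the 9 guinea pig-higher members, C1qb, C1qc, C3ar1 and C5ar1 are genes of macrophages and other myeloid cells. Of 14 macrophage markers listed 7 were measured, and they summed to 6134 to 10853 scaled reads in the guinea pigs and 4234 to 4568 in the mice. C1qb and C1qc are among them, so this sum is not independent of the complement count. The part of macrophages in that count was not tested. Tested against a difference of 1, 2 complement genes were called higher in guinea pig.

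The growth axis had 7 of 35 members higher in guinea pig and 9 in mouse, with a median of -0.42. Its ligands and binding proteins differed in both directions. Beside the Igf2 difference above, Igf1, the growth hormone-driven ligand, had 11.95, 11.36 and 11.72 in the guinea pigs and 13.54 and 13.80 in the mice (-1.99 ± 0.28). Igfbp3, the main carrier of IGFs in adult plasma, had 14.16, 13.13 and 13.50 in the guinea pigs and 8.29 and 8.39 in the mice (5.26 ± 0.27, 45.1 times more scaled reads in guinea pig). Its ternary-complex partner Igfals had 12.59, 11.60 and 11.85 in the guinea pigs and 10.84 and 10.69 in the mice (1.25 ± 0.29) and lost its call without guinea pig replicate 1 (0.96). Igfbp5 was higher in guinea pig (2.83 ± 0.40), and Igfbp4 (-2.12 ± 0.27) and Igfbp2 higher in mouse. Igfbp2 had 10.66, 7.58 and 7.99 in the guinea pigs and 12.63 and 12.51 in the mice (-3.83 ± 0.87, adjusted p 0.00109, limma), with guinea pig replicate 1 again apart from the other two. Of the receptors, Ghr had 13.17, 12.80 and 13.23 in the guinea pigs and 13.65 and 13.41 in the mice and was not called (-0.46 ± 0.24), and the prolactin receptor Prlr had 8.81, 7.97 and 8.01 in the guinea pigs and 10.67 and 10.12 in the mice (-2.13 ± 0.47). Hsd11b1, which regenerates active glucocorticoid, had 15.09, 14.87 and 15.50 in the guinea pigs and 12.71 and 12.62 in the mice (2.49 ± 0.26), and the insulin-restrained transcription factor Foxo1 had 7.79, 7.62 and 7.70 in the guinea pigs and 9.87 and 9.70 in the mice (-2.08 ± 0.20).

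Of the hepatocyte transcription factors, 2 of 20 were higher in guinea pig and 3 in mouse (median -0.06). That is 25.0% called, below the 38.9% of all genes tested. Hnf4g, a relative of Hnf4a, had 8.10, 7.92 and 7.90 in the guinea pigs and 4.29 and 4.57 in the mice (3.55 ± 0.21), with 0 and 1 reads in the mice, and Esrra, a regulator of mitochondrial genes, had 10.79, 11.28 and 11.59 in the guinea pigs and 8.93 and 9.37 in the mice (2.07 ± 0.26). Zbtb20, a repressor of the fetal programme, had 9.63, 9.87 and 10.14 in the guinea pigs and 12.91 and 12.63 in the mice (-2.89 ± 0.22), and Tcf7l2, which acts downstream of Wnt, had 7.30, 7.26 and 6.64 in the guinea pigs and 8.65 and 8.63 in the mice (-1.58 ± 0.24). Onecut1 (-1.52 ± 0.44) lost its call without mouse replicate 1 (-0.59). In zonation markers, pericentral genes gave 3 higher in guinea pig and 7 in mouse of 22 (median -0.16), and periportal genes 4 and 6 of 19 (median -0.60). The mouse-higher periportal count ran from 4 without guinea pig replicate 1 to 9 without mouse replicate 1. The immunoglobulin carrier Pigr had 10.45, 9.87 and 10.93 in the guinea pigs and 14.45 and 13.90 in the mice (-3.76 ± 0.45) and the histidase Hal 10.56, 10.66 and 10.60 in the guinea pigs and 13.07 and 12.98 in the mice (-2.42 ± 0.21), both periportal, while the pericentral ammonium carrier Rhbg was higher in guinea pig (2.05 ± 0.31).

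Clock genes gave 5 of 22 higher in guinea pig and 4 in mouse (median -0.30), in animals whose hour of dissection is not in the labels. Their 40.9% called was near the 38.9% of all genes tested. Cry1, a repressor of the clock, had 9.39, 9.46 and 9.30 in the guinea pigs and 6.87 and 7.18 in the mice (2.35 ± 0.18), and Per1 had 9.47, 10.14 and 9.46 in the guinea pigs and 7.45 and 8.32 in the mice (1.80 ± 0.40). The nuclear receptor Rora had 7.69, 8.15 and 8.15 in the guinea pigs and 10.68 and 11.05 in the mice (-2.86 ± 0.27), and the output factor Tef had 8.34, 8.55 and 8.25 in the guinea pigs and 10.68 and 11.29 in the mice (-2.60 ± 0.33). The clock repressor Ciart had 7.44, 8.64 and 7.66 in the guinea pigs and 5.43 and 7.45 in the mice (1.47 ± 0.55) and lost its call without mouse replicate 1 (0.46) or guinea pig replicate 2 (1.11, adjusted p 0.11, limma). Iron genes gave 5 of 30 higher in guinea pig and 6 in mouse (median -0.14), 36.7% called, no more than over all genes tested. The reductase Steap3 had 11.25, 11.74 and 11.48 in the guinea pigs and 9.13 and 8.71 in the mice (2.57 ± 0.22), and its relative Steap4 the reverse, with 8.58, 7.92 and 8.53 in the guinea pigs and 11.46 and 11.49 in the mice (-3.13 ± 0.33). The transferrin receptor Tfrc (1.71 ± 0.30) and the iron and zinc carrier Slc39a14 (1.76 ± 0.19) were higher in guinea pig, and the iron sensor Ireb2 (-2.05 ± 0.17) in mouse. The iron hormone gene Hamp was not analysed here.

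Of the nuclear genes for oxidative phosphorylation subunits, 24 of 72 were higher in mouse and 1 in guinea pig, with a median of -0.80. The ATP synthase subunit Atp5j2 had 8.92, 7.01 and 7.70 in the guinea pigs and 11.10 and 11.58 in the mice (-3.46 ± 0.38), Atp5e had 10.09, 8.98 and 9.49 in the guinea pigs and 12.13 and 11.85 in the mice (-2.47 ± 0.30), and the succinate dehydrogenase anchor Sdhd had 9.40, 8.79 and 9.14 in the guinea pigs and 11.34 and 11.27 in the mice (-2.19 ± 0.22). Ndufb4, of complex I, was the gene higher in guinea pig (1.35 ± 0.28). Guinea pig replicate 2 was the lowest of its group for Atp5j2, Atp5e and Sdhd. The mouse-higher count was 19 without guinea pig replicate 2 and 32 without replicate 1, and it ran from 7 to 43 over all settings tried. Of 12 mitochondrially encoded genes only mt-Nd3 was called, with 13.54, 12.30 and 13.09 in the guinea pigs and 12.87 and 9.73 in the mice (1.68 ± 0.60), and its difference was 0.10 without mouse replicate 2. It also lost its call without guinea pig replicate 1 (adjusted p 0.0759, limma) or 3 (adjusted p 0.0511), and the groups overlapped. Ribosomal protein genes gave 10 of 72 higher in guinea pig and 7 in mouse (median -0.09). Rpl41 (-7.60 ± 0.30) and Rpl12 (3.86 ± 0.27) were the extremes, in a family with many processed copies whose assignment is uncertain. Without guinea pig replicate 2 the counts were 13 and 4. The proteasome had 1 of 36 higher in guinea pig and 3 in mouse (median -0.17), with 0 to 5 higher in mouse over the libraries left out, 0 without mouse replicate 2 and 5 without guinea pig replicate 1. The member higher in guinea pig lost its call without guinea pig replicate 1 or mouse replicate 1.

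Summed reads of the markers of several other liver cell types were higher in guinea pig. In whole tissue a larger number of such cells and more RNA per cell cannot be told apart. Endothelial markers had 8 of 14 members higher in guinea pig and 0 in mouse, and summed to 23172 to 26959 scaled reads in the guinea pigs and 9671 to 11163 in the mice. Lyve1, a sinusoidal hyaluronan receptor, had 10.37, 9.07 and 10.05 in the guinea pigs and 7.17 and 7.34 in the mice (2.58 ± 0.32), and Stab2 had 11.91, 12.06 and 12.37 in the guinea pigs and 10.05 and 10.52 in the mice (1.83 ± 0.24). Stellate cell and fibroblast markers had 4 of 15 higher in guinea pig (26.7%) and 0 in mouse, with sums of 17093 to 23974 and 9905 to 10061. That share is not far above the 19.8% of all genes tested that were higher in guinea pig. The collagen Col3a1, 1 of the called markers, had 12.63, 12.19 and 11.94 in the guinea pigs and 10.23 and 10.58 in the mice (1.84 ± 0.41). Lymphocyte markers had 4 of 7 tested members higher in guinea pig and 0 in mouse, with sums of 2121 to 2734 and 254 to 265. Most of each guinea pig lymphocyte sum came from Cd3e alone. The T cell genes Cd3d and Cd2 and the B cell gene Cd79b were too low in these livers to be tested. The T cell gene Cd3e had 10.27, 10.12 and 10.67 in the guinea pigs and 4.90 and 5.15 in the mice (5.33 ± 0.31) and the B cell gene Cd79a 8.21, 8.76 and 8.60 in the guinea pigs and 5.21 and 4.91 in the mice (3.46 ± 0.22), while Ms4a1, also of B cells, had 5.25, 5.34 and 5.28 in the guinea pigs and 5.80 and 5.77 in the mice (-0.50 ± 0.24) and was not called. For these lists no guinea pig sum overlapped a mouse sum.

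Markers of bile duct epithelium and macrophages differed in both directions. Of 10 bile duct genes 6 were higher in guinea pig and 2 in mouse. The keratin Krt19 had 9.99, 10.97 and 9.59 in the guinea pigs and 5.48 and 5.23 in the mice (4.82 ± 0.48), and the secreted Spp1 had 5.32, 4.59 and 4.56 in the guinea pigs and 9.35 and 8.58 in the mice (-4.15 ± 0.33), and the list summed to 3337 to 4794 scaled reads in the guinea pigs and 1854 to 2137 in the mice. Of 7 macrophage genes 4 were higher in guinea pig, with Cd68 at 10.39, 9.48 and 10.51 in the guinea pigs and 6.46 and 6.32 in the mice (3.74 ± 0.32), and 1 in mouse, the scavenger receptor Cd163 with 5.14, 5.06 and 4.89 in the guinea pigs and 8.05 and 9.02 in the mice (-3.51 ± 0.25). Of 2 red blood cell genes tested 1 was higher in mouse, Alas2, of erythroid haem synthesis, with 6.60, 7.85 and 7.73 in the guinea pigs and 10.64 and 10.96 in the mice (-3.41 ± 0.35) and sums of 86 to 260 and 1773 to 2198. Pancreas markers summed to 2 to 3 scaled reads in the guinea pigs and 320 to 507 in the mice, nearly all from the elastase Cela1, with 0 reads in every guinea pig, and Cpa1 and Ctrb1 had 0 reads in all 5 livers. Of 2 neutrophil markers tested 1 was higher in guinea pig, Ltf, with 7.53, 8.31 and 8.27 in the guinea pigs and 4.79 and 4.29 in the mice (3.50 ± 0.40). The neutrophil genes Mpo, Elane, Camp and Ngp were too low in these livers to be tested. The part of these cell types in the results above was not tested.

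**Figure D5:**
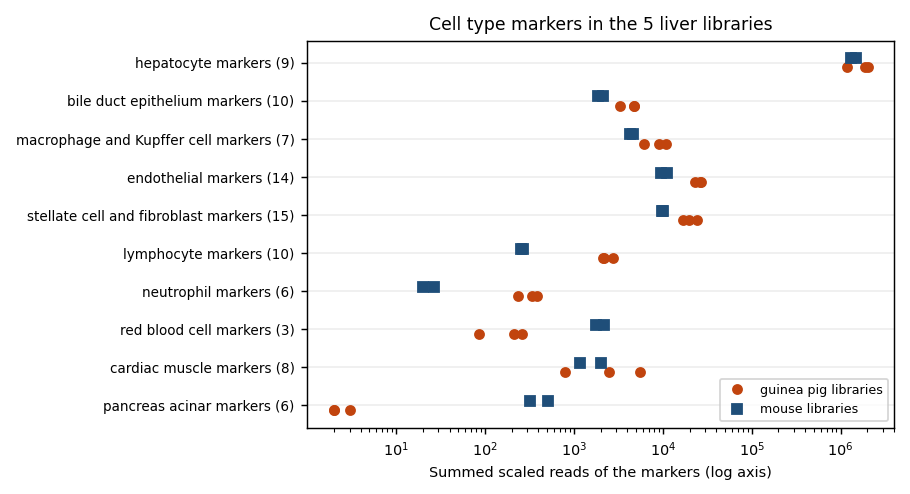
Summed scaled reads of the markers of 10 cell types or tissues in each of the 5 liver libraries, on a log axis, with the number of markers in the table in brackets. Endothelial, stellate and lymphocyte sums are higher in all 3 guinea pigs than in both mice, red blood cell and pancreas sums are lower, and hepatocyte and cardiac muscle sums overlap.

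Some genes had no read at all in 1 species. In the guinea pig livers 432 genes had 0 reads in all 3 libraries and at least 1 read in mouse, of which 28 reached a mean of 100 scaled reads in mouse. In the mouse livers 799 genes had 0 reads in both libraries and at least 1 in guinea pig, of which 40 reached 100. A count of 0 allows up to 3 reads per library, so a fold is a lower bound, covering counting error only. By that bound Slc22a2, a carrier of organic cations, was at least 2251-fold higher in guinea pig, from 9551, 6779 and 10338 reads, and the water channel Aqp5 at least 1727-fold, from 7054, 4492 and 9079 reads. The apelin receptor ligand Apela, the cell cycle regulator Rgcc and the threonine dehydrogenase Tdh were at least 599-fold, 397-fold and 396-fold higher. In the other direction Wfdc21 was at least 1311-fold higher in mouse, from 3058 and 2991 reads, and the sulfotransferase Sult1d1 at least 837-fold, from 2103 and 1665. The fatty acid elongase Elovl3, the water channel Aqp8 and the fatty acid binding protein Fabp2 were at least 819-fold, 671-fold and 574-fold higher in mouse. Whether a gene at 0 reads lacks a counterpart in the reference of that species was not tested.

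The same contrast in heart, from a table normalised separately and partly from the same animals, called 3490 of 10471 genes (33.3%), 1660 (15.9%) higher in guinea pig and 1830 (17.5%) in mouse. Of 9847 genes tested in both tissues, 3669 were called in liver, 3155 in heart and 1763 in both, 1544 of them in the same direction and 219 in opposite directions. The same-direction calls were 42.1% of the liver calls and 48.9% of the heart calls, in comparisons that share the guinea pigs and 1 mouse but no library. Igf2 was 3.77 in heart, Aox1 3.27, Igfbp3 1.64, Me1 -2.99, Thrsp -3.28 and Rpl41 -6.60, each called there. Others were not called in heart, such as Psat1 (0.61), Elovl2 (0.17), Car3 (0.07) and Gstp1 (0.38). Apoa1 was called in the opposite direction, with 11.63, 11.83 and 11.78 in guinea pig hearts and 6.39, 7.22 and 7.08 in mouse hearts (4.85, adjusted p 1.26e-11, limma). The difference between the tissues was not tested for any gene.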

How the data were processed

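Total liver RNA depleted of ribosomal RNA was sequenced from 3 guinea pigs and 2 mice. The authors deposited 1 table per tissue of variance-stabilised read counts on a log2-like scale, per the file headers. The submitters' processing notes name cutadapt, Salmon 013.1, DESeq2 and GRCm38, without roles, and how genes were matched across species is not given in the sources used here. Another 26 columns of per-sample values were not used. Inverting the deposited log2-like values gave whole reads to within 1.4e-07 in liver and 9.1e-08 in heart.

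For the comparison, limma 3.58.1 (R 4.3.3) fitted the authors' log2-like values of all 14 liver libraries with 1 coefficient per species and a trend in the prior variance. P-values were adjusted by Benjamini and Hochberg's method across 10658 genes. The other species add only to the estimate of the spread. Heart was fitted alike on its own table. Replicates are labelled as separate animals. On simulated data with 10536 genes of this liver comparison, 73.7% of 99 genes changed 4-fold, 21% of 100 changed 2-fold and 0.0484% of unchanged genes were called. Far fewer genes were changed there than differed in the real livers, so these shares do not carry over.

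Members, gene lists and tests were chosen with earlier results of these data known. Genes are named by a rule: the 10 most different in each direction with means at least 1 above the floor in both species and no overlap, up to 4 called members per list and direction, fixed genes of liver function, the 8 most abundant genes, and the 5 most abundant per species among genes with 0 reads in the other. Predicted genes and genes with no symbol were skipped in the first and last of these. Markers of other cell types, and Srebf1, Elovl1, Elovl5, Lpin1, Dgat1, Dgat2, Gpam, Agpat2 and the genes of the last section, were named after their values were seen. Some genes of the rule and the lists are not reported here, though the counts include them. Alternatives changed the threshold, filter, scaling, model or libraries, and included voom and thinning on the recovered reads.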

Additional observations from a re-analysis of the deposited data

Results flagged for a closer look

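For the following genes, chosen by the naming rule, every guinea pig liver lay on one side of both mouse livers while every guinea pig heart lay on the other side of all 3 mouse hearts. Over all genes called in both tissues, 219 of 1763 differed in opposite directions and 1544 in the same direction. That share is not one for this set, which needed neither a call nor a least size in heart. The share of all genes that meet the rule of this set was not counted. The difference between the tissues was not tested, the tables were normalised separately, and the guinea pigs and 1 mouse gave both organs. Values below are guinea pig minus mouse in liver, then in heart, on the log2-like scale of each table. In heart limma called Apoa1, Scp2, Vldlr, Scarb1, Fads2, Echs1, Acadm, Pdk4, Crat, Gpt, Gsto1, Cyp4v3, Vkorc1, Qsox1, Igfbp2 and Steap3. The other heart values did not pass, and some were small, such as Timeless (-0.09) and Cat (-0.17).

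Of these, Apoa1 had the widest contrast, with -9.96 in liver and 4.85 in heart. Its heart values were 11.63, 11.83 and 11.78 in the guinea pigs and 6.39, 7.22 and 7.08 in the mice, against 7.96, 6.51 and 7.07 and 17.26 and 17.03 in the livers. Gatm, of creatine synthesis, had 6.51, 6.63 and 6.18 in guinea pig hearts and 7.27, 7.28 and 6.86 in mouse hearts, where its livers had 14.62, 13.75 and 14.53 and 7.55 and 7.77.

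Lipid and sterol genes in this set, as liver and heart differences, were Cyp7b1 -5.58 and 0.94, Scp2 -2.95 and 1.07, Vldlr 1.90 and -1.89, and Scarb1 1.09 and -1.28. Further members were Stard4 -3.04 and 0.62, Fads1 -6.38 and 0.73, Fads2 -7.91 and 1.34, and Fasn -2.87 and 0.81. The remaining members were Echs1 1.34 and -1.26, Acadm 1.23 and -2.80, and Ppara -1.39 and 0.37.

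Genes of carbohydrate, amino acid and energy metabolism in this set, as liver and heart differences, were Gatm 6.64 and -0.70, Mgam -6.72 and 0.87, Pdk4 3.33 and -3.85, Crat 2.67 and -1.11, and Pck2 5.89 and -0.86. Further members were Tkfc -3.69 and 0.69, Gpt -3.66 and 1.52, Sdsl 3.05 and -0.58, and Slc1a4 -1.35 and 0.89.

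Genes of xenobiotic, redox and glucuronate metabolism in this set, as liver and heart differences, were Gstp1 -8.03 and 0.38, Gusb 3.14 and -0.37, Gsto1 2.69 and -1.97, Cyp4v3 -3.45 and 3.09, and Cyb5r3 -2.60 and 0.71. The last member was Cat 1.73 and -0.17.

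Genes of plasma proteins, growth, iron, transport and the clock in this set, as liver and heart differences, were C5ar1 1.65 and -0.54, Vkorc1 -1.33 and 1.35, Qsox1 -4.85 and 1.61, Hsd11b1 2.49 and -0.92, and Igf1 -1.99 and 0.75. Further members were Igfbp2 -3.83 and 1.51, Timeless 1.76 and -0.09, Steap3 2.57 and -2.91, and Slc22a3 1.07 and -0.68.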

How the results depend on the processing

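The 4148 calls became 6510 with no size threshold (3337 higher in guinea pig, 3173 in mouse), 2090 when tested against a difference of 1 (1046 and 1044) and 2458 with only genes above the table median (1157 and 1301). Other settings gave 3356 (filter in each species) to 4873 (voom on recovered reads). The median difference, 0.037, was 0.056 with no filter, -0.010 with the filter in each species, -0.024 above the table median and 0.101 after centring on library medians, where 54.4% of calls were higher in guinea pig against 50.8%. Leaving out each library in turn gave 4120 to 4219 calls, 2101 to 2132 higher in guinea pig and 2010 to 2087 in mouse, and a median of 0.030 to 0.039. Without 1 mouse, the lone mouse library is assumed to vary like the other groups. With a replicate block there were 4143 calls, but the numbers do not pair animals of different species (correlations of same-numbered deviations 0.143 and 0.084). Of 211 named genes 198 were called, 153 kept the call under every setting run that tested them, 45 lost it under at least 1 and 15 when a library was left out, and none reversed while called. In the simulation 21% of 2-fold changes were called and 32% passed the adjusted p alone. A 2-fold change moves the value by 0.970 even from 1000 scaled reads, which is under the size threshold of 1. The simulation also changed far fewer genes than the 61.1% that passed the adjusted p here. Its shares therefore do not carry over to the real comparison. A gene not called is not shown to be alike in both species.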

Other observations

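The genes of serine synthesis, one-carbon metabolism, creatine and membrane transport given here were picked after their values were seen, so their directions are a description only. Beside Phgdh and Psat1, the last enzyme of serine synthesis, Psph, had 10.90, 10.76 and 12.20 in the guinea pigs and 6.52 and 6.56 in the mice (4.75 ± 0.38). Shmt1, the cytosolic enzyme that passes a carbon from serine to folate, had 13.46, 13.65 and 13.70 in the guinea pigs and 11.24 and 11.82 in the mice (2.07 ± 0.28), and Mthfd1, which carries that carbon onward, had 13.88, 14.00 and 14.02 in the guinea pigs and 11.84 and 12.07 in the mice (2.02 ± 0.20). The guinea pig and mouse values of these 3 genes did not overlap. The mitochondrial Mthfd1l was also higher in guinea pig (3.02 ± 0.36), while Shmt2 (0.94 ± 0.26) and Mthfd2 (-0.07 ± 0.35) were not called. The serine carrier Slc1a4 was higher in mouse (-1.35 ± 0.24), and the glutamine and serine carrier Slc1a5 was not called (0.25 ± 0.22).

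Creatine synthesis has 2 steps, and both genes were higher in guinea pig, Gatm as given above and Gamt with 12.21, 11.18 and 12.04 in the guinea pigs and 10.66 and 10.60 in the mice (1.18 ± 0.29). The creatine carrier Slc6a8 had 5.50, 5.54 and 5.64 in the guinea pigs and 7.19 and 7.04 in the mice and was higher in mouse (-1.56 ± 0.21).

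Water channels differed by member. Aqp5 had 12.28, 11.87 and 12.60 in the guinea pigs and 4.29 and 4.29 in the mice and Aqp8 had 4.29, 4.29 and 4.29 in the guinea pigs and 10.89 and 10.16 in the mice, each with 0 reads in 1 species. Aqp4 (-2.68 ± 0.22) and Aqp1 (-1.12 ± 0.34) were higher in mouse, and Aqp9, which carries glycerol into hepatocytes, was not called (-0.84 ± 0.33). Of carriers of organic cations, Slc22a2 had 12.71, 12.46 and 12.78 in the guinea pigs and 4.29 and 4.29 in the mice, and the exporter Slc47a1 had 6.38, 7.34 and 7.55 in the guinea pigs and 10.37 and 10.41 in the mice (-3.30 ± 0.37).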
